A study of Mus musculus with 4 samples.

Results

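Cytochrome P450, glutathione transferase and aldehyde dehydrogenase genes were compared between Nfatc1+ and Shh+ cells of the embryonic mouse hair peg. The genes were taken by symbol from the deposited table: every Cyp gene with a family number, subfamily letter and gene number, every Gst gene of the a, m, p, t, o, k and z classes, Mgst1, Mgst2 and Mgst3, and every numbered Aldh gene. The retinoid enzymes Cyp26a1, Cyp26b1, Cyp26c1, Aldh1a1, Aldh1a2 and Aldh1a3 were left out. This gave 137 of the 23361 genes in the table, of which 96 were Cyp, 24 were Gst or Mgst and 17 were Aldh genes. RNA was sequenced from back skin at embryonic day E17.5, with 2 libraries for each population. All mice carried Rosa-stop-tdTomato, a red reporter that is switched on when Cre removes its stop cassette, and K14-H2BGFP, a nuclear green reporter of keratin 14-positive epithelium. In one population the reporter was switched on by Nfatc1-CreER and in the other by Shh-CreER, so each population is the set of cells, with any descendants, in which that driver was active after tamoxifen at E15.5. Both were sorted as cells positive for GFP and tdTomato. Nfatc1+ cells came from whole skin kept in 0.25% trypsin for 16 min at 37°C. For Shh+ cells, dispase at 0.4 mg/ml was used for 1 h to lift off the epidermis before the dermis received 10 min of trypsin. The population and its way of isolation cannot be told apart in these libraries. Whether the libraries came from separate animals or litters is not stated in the labels or methods, so each p-value is set against library-to-library spread only, and that spread may be technical.

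The 3 families handle small and often reactive molecules. Cytochrome P450 enzymes use haem and electrons from a reductase to put oxygen into drugs, steroids, fatty acids and vitamins. Glutathione transferases join the tripeptide glutathione to electrophiles or use it to reduce peroxides, and aldehyde dehydrogenases oxidise aldehydes made by metabolism or lipid peroxidation to acids. In skin, members of these families metabolise environmental chemicals, build lipids of the permeability barrier and clear oxidation products.

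Values are FPKM, sequenced fragments divided by transcript length and library size, so levels of different genes can be compared. The absolute depth is unknown. From the size of single-fragment steps below 0.3 FPKM, and with Nfatc1+ replicate 1 set to 1, the relative depth was 0.927 in Nfatc1+ replicate 2 and Shh+ replicate 1. Shh+ replicate 2 was the shallowest, at 0.575, and its low values rest on the fewest fragments. The drivers followed the labels, with Nfatc1 at 112 to 116 FPKM in Nfatc1+ and 20.1 to 25.3 FPKM in Shh+ libraries, and Shh at 10.5 to 11.7 and 144 to 145 FPKM. The epithelial keratins Krt5 and Krt14 were at 1030 FPKM or more in all 4 libraries. The counts of markers that follow use the test given in the next paragraph. That test called 16.6% of all genes tested higher in Nfatc1+ and 14.9% higher in Shh+ cells. Of 7 epithelial keratinocyte markers, 4 were higher in Nfatc1+ cells (summed FPKM 6941 to 6988 against 4642 to 4651), Krt5 by 1.78-fold and Col17a1 by 2.48-fold. Markers of other cells were present too. The summed FPKM of 12 sebocyte markers was 366 to 391 in Nfatc1+ and 653 to 659 in Shh+ libraries, where Fabp5 alone was at 571 and 582. Of 9 sebocyte markers tested, 7 were higher in Nfatc1+ cells, and Fabp5 was higher in Shh+ cells. Pparg, among the 7, was at 9.13 and 11.4 against 0 and 0.12 FPKM. Of 8 Merkel cell markers tested, 7 were higher in Nfatc1+ cells (summed FPKM 59.5 to 67.1 against 23.9 to 29.1), as were 12 of 20 immediate early genes (3313 to 3756 against 1575 to 1665). Differentiated epidermal markers had 6 of 9 higher in Shh+ cells (872 to 922 against 1026 to 1230), 3 of 9 without Nfatc1+ replicate 1 or Shh+ replicate 1, and 2 of 9 higher in Nfatc1+ cells. Of 10 melanocyte markers 1 was higher in Nfatc1+ cells, and their sum was larger in replicate 2 of each population (32.3 and 67.1, then 8.92 and 44.7). Of 10 fibroblast markers, Thy1 and Vim were higher in Nfatc1+ cells and Dcn in Shh+ cells, and without Nfatc1+ replicate 1, 6 were higher in Nfatc1+ cells. Their sums were 383 to 676 and 609 to 675 FPKM, with Dcn alone at 326 and 425 in the Shh+ libraries. Leukocyte markers summed to 13.2 to 18.5 and 8.78 to 13.7, and endothelial markers to 5.37 to 7.26 and 6.07 to 6.39. The part of these cell types and genes in the differences below was not tested. In bulk samples, fewer cells of a type and less RNA per cell cannot be told apart.

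Most Cyp genes were silent in both populations, while most Gst, Mgst and Aldh genes were expressed. Averaged over all 4 libraries, 0.5 FPKM or more was reached by 18 of 96 Cyp, 17 of 24 Gst and Mgst and 15 of 17 Aldh genes, 50 of 137 in all (36.5%), against 54.6% of the whole table. Of the 87 others, 59 were listed at 0 in every library, 57 of them Cyp genes, and the highest of the 87 had a mean of 0.479 FPKM. Genes above the limit were tested with limma on log2(FPKM + 0.5) in a fit of all 12750 such genes, and were called at a Benjamini-Hochberg adjusted p under 0.05. Differences are given as log2 units, Nfatc1+ minus Shh+, on the log2(FPKM + 0.5) scale, where low genes appear to differ by less than their FPKM do.

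Of the 50 tested genes, 21 (42.0%) were higher in Nfatc1+ cells and 9 (18.0%) were higher in Shh+ cells, against 16.6% and 14.9% of all genes tested. With a difference of at least 2-fold on that log2 scale as well, 14 (28.0%) were higher in Nfatc1+ and 2 (4.0%) in Shh+ cells, against 5.72% and 4.7%. Aldh3b2, 2.02-fold higher in Shh+ cells by its mean FPKM, fell just short there, at −0.98. Each family had 7 genes called higher in Nfatc1+ and 3 called higher in Shh+ cells. The 2 populations did not overlap for 43 of the 50 genes (86.0%), against 70.7% of all genes tested. The median difference was 0.33 over the 50 genes and −0.0018 over all genes tested. Of the 50, 11 passed the limit on low values through 1 population alone, 10 of these being below 0.5 FPKM in Shh+ cells. Of the 11, 7 were called, all toward Nfatc1+ cells. Among the 14 genes given above, Cyp2g1, Cyp4b1, Cyp27a1, Cyp27b1, Gstm6 and Aldh3a1 passed the limit through Nfatc1+ cells alone. The 11 were mostly P450s: 8 were Cyp genes, all low in Shh+ cells, and 5 of these 8 were among the 7 Cyp calls toward Nfatc1+ cells. The count in Nfatc1+ cells was 17 to 21 when single libraries were left out. The count in Shh+ cells was less stable, at 4 without Nfatc1+ replicate 1, Shh+ replicate 1 or Shh+ replicate 2 and 7 without Nfatc1+ replicate 2.

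**Figure D1:**
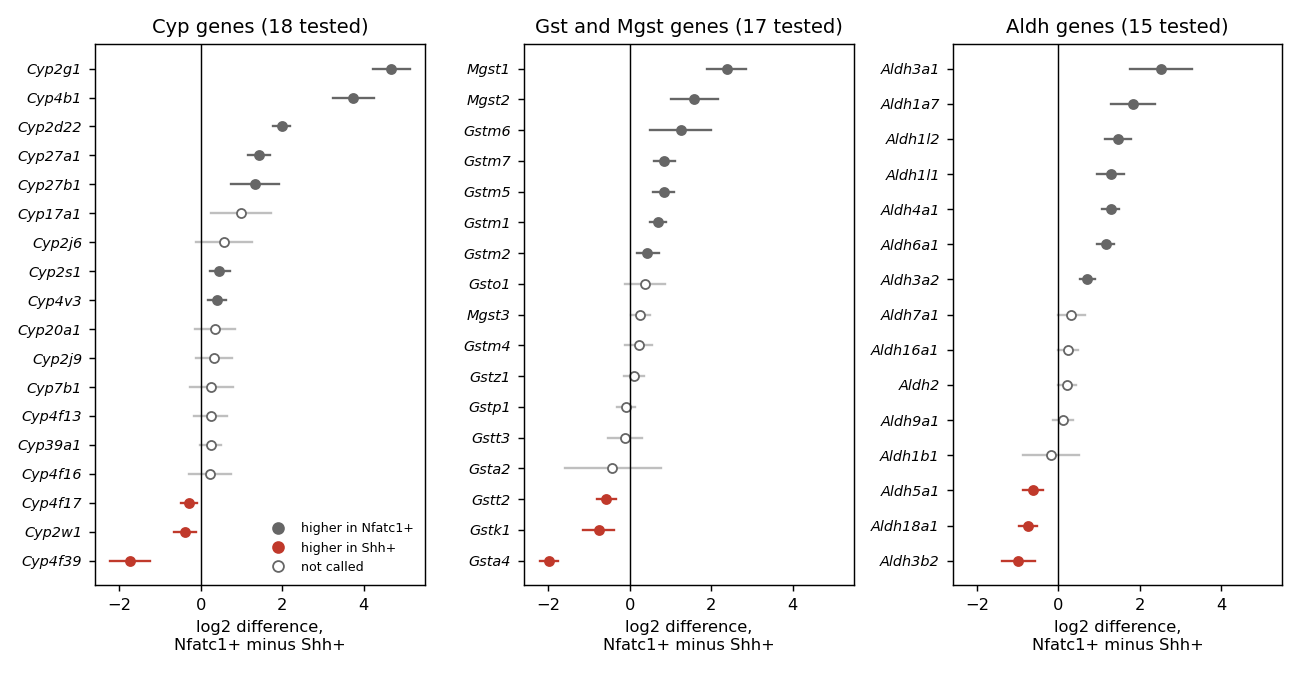
Log2 difference (Nfatc1+ minus Shh+, on log2(FPKM + 0.5)) of each of the 18 Cyp, 17 Gst and Mgst and 15 Aldh genes tested; lines are limma 95% confidence intervals, filled points are genes called higher in Nfatc1+ (grey) or Shh+ (red) cells and open points are genes not called. Each panel has 7 grey and 3 red points, and the widest differences are those of Cyp2g1 and Cyp4b1.

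Among the P450 genes, the differences of at least 2-fold toward Nfatc1+ cells were those of Cyp2g1, Cyp4b1, Cyp2d22, Cyp27a1 and Cyp27b1. Cyp2g1, a P450 known from the olfactory mucosa of rodents, was at 14.5 and 10.4 FPKM in the Nfatc1+ libraries and listed at 0 in both Shh+ libraries. It was the highest Cyp gene of Nfatc1+ replicate 1, while in replicate 2 Cyp4f17 was higher (13.4 FPKM). Cyp2g1 had a log2 difference of 4.68 (standard error 0.17, limma adjusted p = 0.000502), a size that depends on the added 0.5 since the Shh+ values are 0. These values of 0 also add no spread to its standard error and p. The gene spans 26808892 to 26821205 on chromosome 7 (GRCm38). Cyp4b1, which hydroxylates fatty acids and activates some lung toxins, was at 9.55 and 6.94 FPKM in Nfatc1+ and 0.217 and 0.0874 FPKM in Shh+ libraries. Its log2 difference was 3.74 (standard error 0.19, adjusted p = 0.000775). For both genes the Nfatc1+ libraries were far above the Shh+ libraries, with no overlap, and 70.7% of all genes tested did not overlap either.

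Cyp2d22, of the subfamily that holds the human drug enzyme CYP2D6, had the tightest replicates of this group. It was at 7.45 and 7.12 FPKM in Nfatc1+ and 1.49 and 1.43 FPKM in Shh+ libraries, a 4.98-fold difference (log2 difference 1.99, standard error 0.08, limma adjusted p = 0.000522). The mitochondrial P450s for sterols and vitamin D were low. Cyp27a1, the sterol side-chain hydroxylase, was at 1.44 and 1.39 against 0.161 and 0.259 FPKM (log2 difference 1.44, adjusted p = 0.00142 from limma). Cyp27b1, which makes the active form of vitamin D, was at 1.94 and 1.07 against 0.287 and 0.265 FPKM (1.33, adjusted p = 0.0152). The call of Cyp27b1 ended without Shh+ replicate 1 (adjusted p = 0.0682) or 2 (0.0707). Cyp2s1, an epithelial P450, and Cyp4v3, a fatty acid hydroxylase, were also called higher in Nfatc1+ cells, by 0.46 and 0.40 log2 units, and each call ended without Nfatc1+ replicate 1, Nfatc1+ replicate 2 or Shh+ replicate 1 and with a spread that follows the expression level. That of Cyp4v3 ended without Shh+ replicate 2 too.

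Of the P450 genes called higher in Shh+ cells, Cyp4f39 alone passed 2-fold. It encodes the mouse counterpart of human CYP4F22, which hydroxylates very long fatty acids for the acylceramides of the skin barrier. Cyp4f39 was at 3.40 and 3.47 FPKM in Shh+ and 0.490 and 0.906 FPKM in Nfatc1+ libraries, 4.92-fold higher in Shh+ cells (log2 difference −1.74, standard error 0.18, adjusted p = 0.00418 from limma). Of 9 differentiated epidermal markers tested, 6 were higher in the same Shh+ cells, while 2, Krtdap (0.98) and Casp14 (1.11), were higher in Nfatc1+ cells. The part of these markers in the difference of Cyp4f39 was not tested. The 3 tested neighbours of Cyp4f39 on chromosome 17 did not share the difference in size. Cyp4f17 was at 13.9 and 13.4 against 16.8 and 16.8 FPKM (−0.29, adjusted p = 0.0452), and its call, like that of Cyp2w1 (−0.39, adjusted p = 0.0486), an orphan P450, ended when any 1 of the 4 libraries was left out. The highest adjusted p over the alternatives was 0.195 for Cyp4f17 and 0.18 for Cyp2w1. Cyp4f13 and Cyp4f16 were not called (adjusted p = 0.278 and 0.439), with intervals of −0.16 to 0.65 and −0.30 to 0.74.

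With these, 8 Cyp genes were tested and not called, and their log2 differences were 0.22 to 0.98. The uppermost was that of Cyp17a1, a steroid hydroxylase, at 1.79 and 0.828 against 0.331 and 0.445 FPKM (adjusted p = 0.0603). It was called without Nfatc1+ replicate 2 and with a spread that follows the expression level. Cyp20a1 and Cyp2j6 were called without Shh+ replicate 2. Cyp39a1, a hydroxylase of oxysterols, was among the highest P450s in both populations, at 11.7 and 10.2 against 8.85 and 9.51 FPKM (interval of the log2 difference −0.02 to 0.50).

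Several P450 genes known as targets of the aryl hydrocarbon receptor lay below the limit and were not tested. Cyp1a1, the classical target, was at 0.419 and 0.226 FPKM in Nfatc1+ libraries and listed at 0 in both Shh+ libraries, and Cyp1b1 was at 0.450 and 0.337 against 0.0373 and 0.0903 FPKM. Cyp1a2 was listed at 0 in all 4 libraries. Cyp2b19, a keratinocyte P450 for arachidonic acid in mice, lay the other way, at 0.170 and 0.220 against 1.17 and 0.354 FPKM. These low genes were singled out after their values had been seen.

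**Figure D2:**
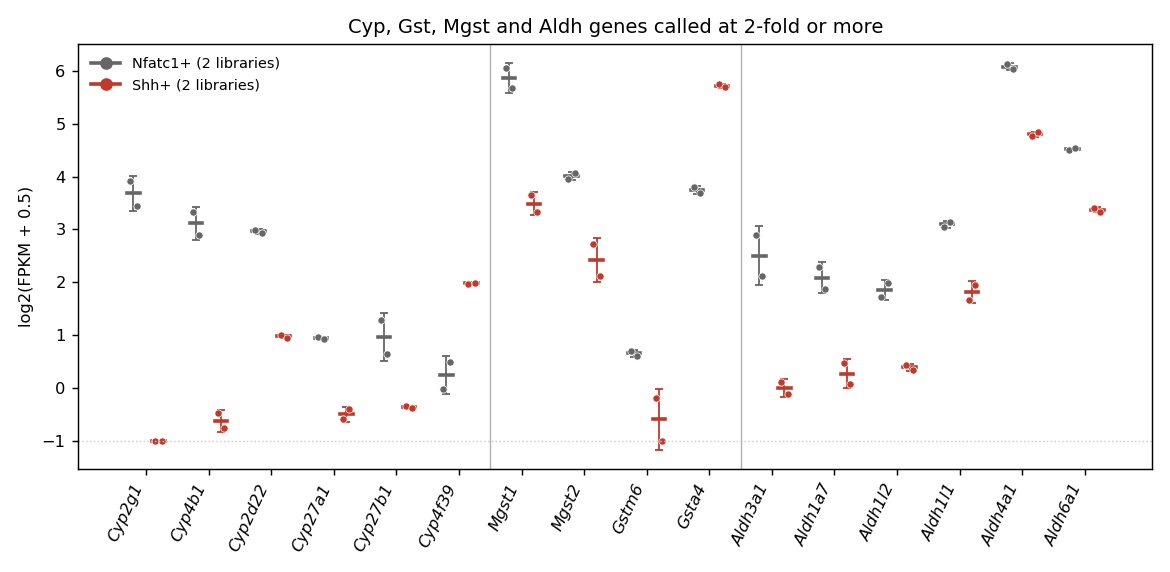
Expression of the 16 Cyp, Gst, Mgst and Aldh genes called with a difference of at least 2-fold, on a log2(FPKM + 0.5) axis. Points are single libraries (Nfatc1+ grey, Shh+ red), horizontal strokes their mean and vertical bars the SD (n = 2), and the dotted line marks 0 FPKM. The 14 genes higher in Nfatc1+ cells and the 2 higher in Shh+ cells (Cyp4f39 and Gsta4) have no overlap between the populations. They were chosen for their difference, and 70.7% of all genes tested do not overlap either.

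Among the glutathione transferase genes, the membrane-bound Mgst1 and Mgst2 were over 2-fold higher in Nfatc1+ cells. Mgst1, which conjugates electrophiles and reduces lipid peroxides in microsomes and mitochondria, was at 66.2 and 50.4 FPKM in Nfatc1+ and 12.0 and 9.56 FPKM in Shh+ libraries. It was thus the highest gene of the family in Nfatc1+ replicate 1, while in replicate 2 Gstp1 was higher (54.5 FPKM). The difference of Mgst1 was 5.41-fold (log2 difference 2.38, standard error 0.18, limma adjusted p = 0.00183). Mgst2, which can make leukotriene C from its precursor, was at 15.0 and 16.2 against 6.07 and 3.84 FPKM, 3.14-fold (log2 difference 1.59, adjusted p = 0.00812 from limma). Mgst3 was at 29.0 and 30.8 against 23.9 and 25.9 FPKM and was not called (0.26, adjusted p = 0.0867), except with a spread that follows the expression level (0.035). Of 9 sebocyte markers tested, 7 were higher in the same Nfatc1+ libraries, with Pparg and Scd1 among them (Scd1 at 47.4 and 42.0 against 9.26 and 7.16 FPKM). Fabp5 of the same list was higher in Shh+ cells (−1.46), and Fasn was not called (−0.34). The part of these markers in the difference of Mgst1 was not tested.

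Gsta4 differed in the other direction. Its enzyme conjugates hydroxynonenal, a toxic product of lipid peroxidation. Gsta4 was at 53.2 and 51.2 FPKM in Shh+ and 13.4 and 12.4 FPKM in Nfatc1+ libraries, 4.05-fold higher in Shh+ cells (log2 difference −1.98, standard error 0.08, limma adjusted p = 0.000592). It lies on chromosome 9 from 78182774 to 78209349. Gsta2, on the same chromosome, was at 0.248 and 0.533 FPKM in Nfatc1+ and 0.268 and 1.29 FPKM in Shh+ libraries, with overlap, and was not called (interval −1.59 to 0.76). Of its 100-base transcript windows, 35.0% also occur in another gene. Gstk1, a transferase of mitochondria and peroxisomes, was at 16.9 and 18.7 against 9.05 and 11.7 FPKM (−0.76, adjusted p = 0.0212), and Gstt2 of the theta class at 1.61 and 1.61 against 0.853 and 0.996 FPKM (−0.57, adjusted p = 0.0115). These 2 calls ended without Nfatc1+ replicate 1, Shh+ replicate 1 or Shh+ replicate 2, and that of Gstt2 also with a spread that follows the expression level.

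Of the mu class genes, most of those tested were higher in Nfatc1+ cells. All 7 Gstm genes lie within 107895821 to 108044894 on chromosome 3, and 6 of them were tested. Of these, 5 were called higher in Nfatc1+ cells, as were 16.6% of all genes tested. Gstm5 was at 55.3 and 48.2 against 29.1 and 28.3 FPKM, a 1.80-fold difference (log2 difference 0.84, standard error 0.10, adjusted p = 0.00555 from limma). An antisense gene, 4933431E20Rik, lies opposite 13.9% of its exon bases and was at 4.89 and 4.36 against 1.22 and 1.45 FPKM, and without strand their reads cannot be told apart. Gstm1 was at 26.7 and 26.2 against 16.0 and 16.2 FPKM (0.69, adjusted p = 0.00407), and Gstm7 was at 6.16 and 5.67 against 2.84 and 3.27 FPKM (0.85, adjusted p = 0.00549). Gstm2 was at 57.0 and 49.4 against 39.1 and 38.8 FPKM (0.44, adjusted p = 0.0328), a call that ended without Nfatc1+ replicate 1 (0.126), Shh+ replicate 1 (0.109) or Shh+ replicate 2 (0.11). Gstm6 was low, at 1.13 and 1.03 against 0.375 and 0 FPKM (1.25, adjusted p = 0.0324). Its size depends on the pseudocount (2.43 with 0.1, 0.83 with 1), and its call ended without Nfatc1+ replicate 2 (0.0984), with a pseudocount of 0.1 (0.0996) or with no filter on low values (0.0526). Gstm4 was not called (0.22, interval −0.12 to 0.55), and Gstm3, too low to be tested, was at 0.165 and 0.178 against 0.267 and 0.287 FPKM. The mu genes are close relatives. Of the 100-base windows of the transcripts of the 6 tested, at most 7.73%, in Gstm1, were found letter for letter in another gene. Windows that differ by a few letters were not counted, so this sets no limit on how many reads could be misplaced.

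Several other abundant transferases were not called. Gstp1, of the pi class, was at 54.8 and 54.5 against 56.0 and 60.0 FPKM (log2 difference −0.09, interval −0.30 to 0.13, limma adjusted p = 0.46). Its reads are hard to place, since 52.8% of its 100-base windows occur in Gstp2, which the table lists at 0 to 0.314 FPKM. Gsto1, which reduces dehydroascorbate, was at 39.7 and 27.7 against 24.8 and 26.0 FPKM. Its Nfatc1+ libraries differed by more than the populations did, and it was called without Nfatc1+ replicate 2 only (adjusted p = 0.193 with all libraries, 0.0373 without). Gstz1, an enzyme of tyrosine breakdown, was at 23.2 and 22.3 against 19.8 and 22.4 FPKM, with overlapping groups (interval of the log2 difference −0.14 to 0.36). The summed FPKM of the 24 Gst and Mgst genes was 408 and 367 in Nfatc1+ and 311 and 316 in Shh+ libraries.

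**Figure D3:**
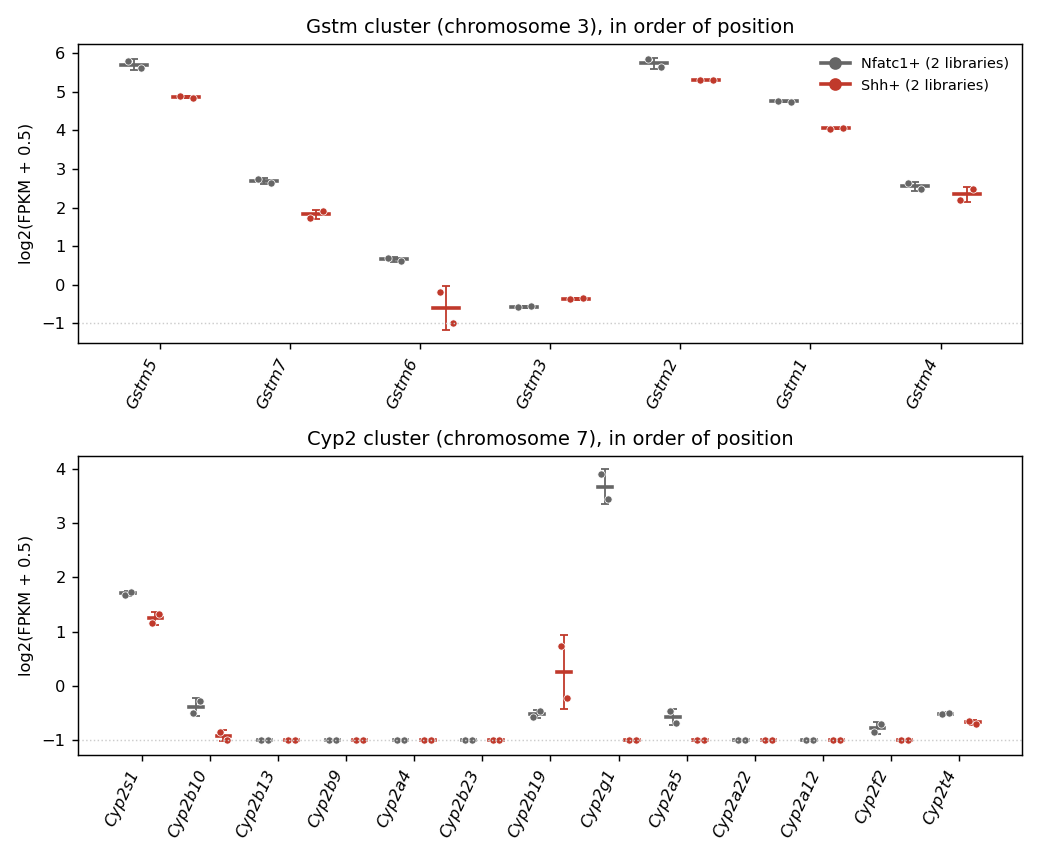
Expression of 7 Gstm genes (top) and 13 Cyp2 genes (bottom) in their order along chromosomes 3 and 7, on a log2(FPKM + 0.5) axis. Points are single libraries (Nfatc1+ grey, Shh+ red), horizontal strokes their mean and vertical bars the SD (n = 2), and the dotted line marks 0 FPKM. In the upper cluster 6 genes passed the limit on low values and 5 are called higher in Nfatc1+ cells, as are 16.6% of all genes tested. In the lower one Cyp2g1 and Cyp2s1 alone passed the limit.

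The P450 clusters were mostly silent, except for the Cyp4f genes on chromosome 17, where 4 of 8 passed the limit. Of 7 Cyp2j genes on chromosome 4, 2 passed it. The Cyp2 cluster on chromosome 7 holds 13 of the genes between 25802475 and 27158668. Cyp2g1 and Cyp2s1 alone passed the limit there, 6 of the 13 were listed at 0 in all libraries, and the highest of the rest, Cyp2b19, had a mean of 0.479 FPKM. Cyp4b1 likewise was the 1 expressed gene among 8 on chromosome 4 (115106323 to 115647723), and Cyp2d22 the 1 expressed gene among 9 on chromosome 15 (82370527 to 82794294). Of the 15 Cyp2c genes on chromosome 19 and the 7 Cyp3a genes clustered on chromosome 5, families known for drug metabolism in liver and gut, none passed the limit. All 15 Cyp2c genes were listed at 0 in every library, and 6 of the 7 Cyp3a genes were.

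Among the aldehyde dehydrogenases, Aldh3a1, Aldh1a7, Aldh1l2, Aldh1l1, Aldh4a1 and Aldh6a1 were at least 2-fold higher in Nfatc1+ cells, and none was that much higher in Shh+ cells on the log2(FPKM + 0.5) scale. Aldh3a1, a soluble enzyme abundant in the cornea and a known target of the aryl hydrocarbon receptor, had the widest difference. It was at 6.96 and 3.81 FPKM in Nfatc1+ and 0.582 and 0.417 FPKM in Shh+ libraries, 10.8-fold (log2 difference 2.51, standard error 0.28, adjusted p = 0.00504 from limma). Its neighbour Aldh3a2, the microsomal fatty aldehyde dehydrogenase needed for a normal skin barrier, was at 15.4 and 16.1 against 9.46 and 9.36 FPKM (0.71, adjusted p = 0.00406). Aldh1a7, a relative of the retinal dehydrogenase gene Aldh1a1, was at 4.39 and 3.17 against 0.879 and 0.551 FPKM (1.82, adjusted p = 0.00484). Aldh1a1 itself was at 0.184 and 0.397 against 0 and 0 FPKM, and it shared 1 of 1967 windows of 100 bases with Aldh1a7.

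Several of the called Aldh genes act in amino acid or folate metabolism. Aldh4a1, the mitochondrial enzyme that completes the breakdown of proline to glutamate, was at 69.3 and 65.1 FPKM in Nfatc1+ and 26.7 and 28.1 FPKM in Shh+ libraries, 2.45-fold (log2 difference 1.28, standard error 0.08, limma adjusted p = 0.00118). Aldh18a1, which makes the precursor of proline from glutamate, went the other way, at 20.5 and 18.8 against 33.9 and 32.7 FPKM (−0.75, standard error 0.09, adjusted p = 0.0052). No library of one population reached into the range of the other for either gene, as was so for 70.7% of all genes tested. Aldh6a1, for the breakdown of valine and pyrimidines, was at 22.2 and 22.8 against 10.1 and 9.58 FPKM (1.16, adjusted p = 0.0013). The formyltetrahydrofolate dehydrogenases Aldh1l1 (cytosolic) and Aldh1l2 (mitochondrial) were at 7.74 and 8.35 against 2.67 and 3.38 FPKM (1.29, adjusted p = 0.0034) and at 2.78 and 3.47 against 0.853 and 0.764 FPKM (1.46, adjusted p = 0.00218). Counting by strand was not given in the sources used here, and 14.1% of the exon bases of Aldh1l2 lie opposite D10Wsu102e, which was at 21.1 to 22.0 FPKM in all libraries. Antisense gene models also cover 18.6% of the exon bases of Aldh6a1 and 11.0% of those of Aldh1l1. For Aldh4a1, 32.2% of the windows are shared with the overlapping gene model Gm21969.

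Aldh3b2, a lipid droplet enzyme in mice, and Aldh5a1, which oxidises succinic semialdehyde from GABA, were the other genes called higher in Shh+ cells. Aldh3b2 was at 15.4 and 14.9 against 8.64 and 6.40 FPKM (−0.98, adjusted p = 0.0125), with 14.0% of its windows shared with Aldh3b3, and Aldh5a1 was at 10.5 and 11.1 against 6.52 and 7.23 FPKM (−0.62, adjusted p = 0.00995). The call of Aldh3b2 ended without Shh+ replicate 1 or 2, and that of Aldh5a1 without Nfatc1+ replicate 1 or Shh+ replicate 2. Aldh2, the mitochondrial acetaldehyde dehydrogenase, was the most abundant of all 137 genes. It was at 120.5 and 116 against 105 and 98.7 FPKM and was not called (0.21, interval 0.00 to 0.43, limma adjusted p = 0.113), except with a spread that follows the expression level (0.0315). Aldh7a1, Aldh9a1, Aldh16a1 and Aldh1b1 were not called either, with log2 differences of −0.18 to 0.32.

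Start-site windows of the genes were read for the motifs of the 2 best known regulators of these families. NRF2, encoded by Nfe2l2, binds the antioxidant response element (ARE), searched here as TGACNNNGC, and the aryl hydrocarbon receptor binds the xenobiotic response element (XRE), searched as its core GCGTG, on both strands. RefSeq windows on GRCm38.p6 of 250 bases before to 50 after a start were at hand for 102 of the 137 genes, 122 windows in all. The ARE letters occurred in 9.84% of these windows and 12.4% of all 32851 windows, and the XRE core in 23.0% and 32.4%. In the 23 windows of genes called higher in Nfatc1+ cells, 3 held the ARE letters and 7 the XRE core (30.4%). The 18 windows of genes tested and not called had 2 with the ARE letters and 7 with the XRE core (38.9%). In the 5 windows of genes called higher in Shh+ cells, 1 held the ARE letters and 3 the XRE core. A match is a run of letters and not a site. The windows of Cyp4b1 (chr4:115647672-115647971, minus strand), Mgst1 (chr6:138140277-138140576, plus strand, the upstream of its 2 windows), Aldh1a7 (chr19:20727507-20727806, minus strand), Cyp4f39 (chr17:32452473-32452772, plus strand), Gstk1 (chr6:42245685-42245984, plus strand) and Aldh18a1 (chr19:40588414-40588713, minus strand) are shown 5′ to 3′ because, among called genes with a window, these had the widest difference of each family toward Nfatc1+ cells (the first 3) and Shh+ cells (the last 3). Capitals mark motif matches.
Cyp4b1: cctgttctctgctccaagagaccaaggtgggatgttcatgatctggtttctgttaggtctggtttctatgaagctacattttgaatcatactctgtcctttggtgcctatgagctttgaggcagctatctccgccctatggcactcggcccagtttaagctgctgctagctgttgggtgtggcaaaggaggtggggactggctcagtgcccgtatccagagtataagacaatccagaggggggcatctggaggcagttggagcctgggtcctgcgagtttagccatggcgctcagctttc
Mgst1: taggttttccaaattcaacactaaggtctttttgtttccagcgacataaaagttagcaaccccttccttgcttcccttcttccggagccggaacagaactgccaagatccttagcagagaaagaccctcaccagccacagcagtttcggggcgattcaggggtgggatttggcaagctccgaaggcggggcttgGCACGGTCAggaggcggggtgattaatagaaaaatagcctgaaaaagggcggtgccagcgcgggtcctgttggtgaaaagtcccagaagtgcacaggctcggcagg
Aldh1a7: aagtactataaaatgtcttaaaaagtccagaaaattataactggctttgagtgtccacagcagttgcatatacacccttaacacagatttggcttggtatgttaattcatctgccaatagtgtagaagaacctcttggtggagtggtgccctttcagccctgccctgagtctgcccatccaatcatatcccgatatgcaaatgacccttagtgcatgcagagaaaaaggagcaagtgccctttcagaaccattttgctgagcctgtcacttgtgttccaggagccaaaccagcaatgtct
Cyp4f39: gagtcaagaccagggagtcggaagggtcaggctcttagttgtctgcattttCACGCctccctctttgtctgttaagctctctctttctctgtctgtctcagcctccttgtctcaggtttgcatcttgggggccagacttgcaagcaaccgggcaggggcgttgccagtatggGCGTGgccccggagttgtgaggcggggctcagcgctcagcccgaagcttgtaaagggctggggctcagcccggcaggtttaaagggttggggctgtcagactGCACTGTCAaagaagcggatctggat
Gstk1: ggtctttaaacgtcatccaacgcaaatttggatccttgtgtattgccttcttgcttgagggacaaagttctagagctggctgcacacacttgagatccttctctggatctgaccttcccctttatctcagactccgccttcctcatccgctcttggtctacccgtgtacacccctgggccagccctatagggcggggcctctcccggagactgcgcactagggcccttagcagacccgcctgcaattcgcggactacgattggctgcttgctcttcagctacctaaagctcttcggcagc
Aldh18a1: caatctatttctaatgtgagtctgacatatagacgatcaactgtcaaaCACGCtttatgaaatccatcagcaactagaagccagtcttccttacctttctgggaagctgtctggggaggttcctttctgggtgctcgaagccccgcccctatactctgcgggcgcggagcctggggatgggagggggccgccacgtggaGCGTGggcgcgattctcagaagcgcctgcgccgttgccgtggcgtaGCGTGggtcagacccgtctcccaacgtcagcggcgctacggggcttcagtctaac
The window of Mgst1 holds 1 ARE match, on the opposite strand. That of Cyp4f39 holds 1 ARE and 2 XRE matches, that of Aldh18a1 3 XRE matches, and those of Cyp4b1, Aldh1a7 and Gstk1 neither.

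Some of the receptor and sensor genes that act on these families were called as well. Of 16 tested receptors and oxidant sensors, 5 (31.2%) were higher in Nfatc1+ and 3 (18.8%) in Shh+ cells, against 16.6% and 14.9% of all genes tested, with a median log2 difference of 0.09. Without Nfatc1+ replicate 1 the first count was 3, and without Shh+ replicate 1 the second was 1. Ahr, which encodes the aryl hydrocarbon receptor, was at 21.7 and 19.9 FPKM in Nfatc1+ and 3.72 and 5.63 FPKM in Shh+ libraries, 4.44-fold (log2 difference 2.06, standard error 0.20, adjusted p = 0.00325 from limma). Ppara, a fatty acid receptor that induces Cyp4 genes in liver, was at 1.37 and 1.24 against 0.118 and 0.127 FPKM (1.53, adjusted p = 0.000793). Nfe2l2 was at 26.9 and 28.6 against 15.9 and 17.9 FPKM (0.70, adjusted p = 0.00821), and Keap1, whose product holds NRF2 down, was at 28.9 and 28.0 against 19.5 and 19.0 FPKM (0.55, adjusted p = 0.00817, and 0.0542 without Nfatc1+ replicate 1). Mafg, a partner of NRF2 on DNA, was higher in Shh+ cells, at 19.6 and 20.4 against 30.8 and 33.1 FPKM (−0.66, adjusted p = 0.00643). The steroid and xenobiotic receptors Nr1i2 (PXR) and Nr1i3 (CAR) were listed at 0 in all 4 libraries. Among other aryl hydrocarbon receptor targets, Tiparp was at 11.2 and 12.9 against 6.32 and 7.56 FPKM (0.75, adjusted p = 0.0153), while Ahrr stayed between 0.1 and 0.2 FPKM; both were picked after their values had been seen.

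The genes for the first step of glutathione synthesis were higher in Nfatc1+ cells. Of 19 tested genes for the supply and use of glutathione, 8 (42.1%) were higher in Nfatc1+ and 2 (10.5%) in Shh+ cells, against 16.6% and 14.9% of all genes tested, with a median of 0.24. Gclc and Gclm, the catalytic and modifier subunits of the enzyme that limits glutathione synthesis, were at 64.0 and 64.3 against 22.5 and 23.6 FPKM (1.46, limma adjusted p = 0.000785) and at 32.6 and 33.3 against 14.7 and 12.8 FPKM (1.24, adjusted p = 0.00202). Gss, for the following step, and Gsr, which recycles oxidised glutathione, were not called. Slc7a11, the cystine importer, was too low to be tested, at 0.294 and 0.318 against 0.839 and 0.511 FPKM. Ggt6, of the family that cleaves glutathione outside cells, was at 12.7 and 12.0 against 4.69 and 5.40 FPKM (1.21, adjusted p = 0.00208). Abcc4, a pump that can export glutathione with its substrates, was the other way, at 3.17 and 3.06 against 13.6 and 12.6 FPKM (−1.91, adjusted p = 0.000609). Without Nfatc1+ replicate 1 or 2, or without Shh+ replicate 2, the count of 8 was 5, and without either Nfatc1+ library the count of 2 was 1. Of 18 NRF2 target genes tested with limma, 6 (33.3%) were called toward Nfatc1+ cells, against 16.6% of all genes tested, and 0 toward Shh+ cells (14.9%), where 1 had an unadjusted p under 0.05 and 1 was called with a spread that follows the expression level. The 6 were Gclc, Gclm, Blvrb (0.81, adjusted p = 0.00882), Nqo1 (0.73), Tkt (0.57, adjusted p = 0.0108) and Abcc1 (0.41), and the count was 3 when either Nfatc1+ replicate 1 or Shh+ replicate 2 was left out. Leaving out Shh+ replicate 1 gave 4. The call of Tkt ended without Nfatc1+ replicate 1 (0.0621) or Shh+ replicate 2 (0.0505). The iron and redox genes Fth1, Ftl1, Txnrd1 and Prdx1 of the same list were not called. Gclc, Gclm, Abcc1 and Slc7a11 are on both the NRF2 and the glutathione list, so the counts of the lists are not independent.

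The main electron donors of the P450s were not called. Por, the reductase that serves all microsomal P450s, was at 25.8 and 25.3 against 23.2 and 21.8 FPKM and was not called, like the mitochondrial ferredoxin and its reductase, Fdx1 and Fdxr. Of 17 tested genes for electron transfer and haem synthesis, 6 (35.3%) were called toward Nfatc1+ cells by limma, against 16.6% of all genes tested, and 0 toward Shh+ cells (14.9%). With no filter on low values the 6 were 3. Toward Shh+ cells, 1 had an unadjusted p under 0.05, and 3 alternatives called 1. Alad, the second enzyme of haem synthesis, stood out at 27.8 and 26.0 against 6.00 and 5.98 FPKM, 4.49-fold (log2 difference 2.08, standard error 0.08, limma adjusted p = 0.000517). The other 5, with Cyb5r1 and Cyb5r3 (both 0.31) among them, differed by less than 2-fold. Ppox (0.52, adjusted p = 0.0105), Cpox (0.51, adjusted p = 0.0296) and Pgrmc2 (0.32, adjusted p = 0.0399) all lost their call without Nfatc1+ replicate 2 or Shh+ replicate 1, and the count of 6 was 1 in each case, 2 without Nfatc1+ replicate 1 and 3 without Shh+ replicate 2. Alas1, which limits haem synthesis, was at 14.7 and 13.7 against 16.0 and 14.4 FPKM.

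Other conjugating and hydrolysing enzymes had 23 genes tested. Of these, 11 (47.8%) were higher in Nfatc1+ and 2 (8.7%) in Shh+ cells, against 16.6% and 14.9% of all genes tested, with a median of 0.49. The 11 were fewer when any single library was left out. The 2 were fewer without Nfatc1+ replicate 1, Shh+ replicate 1 or Shh+ replicate 2. Ugt1a1, a glucuronosyltransferase, was at 7.06 and 5.14 against 0.683 and 0.646 FPKM (2.49, adjusted p = 0.00119 from limma). The carbonyl reductase gene Cbr3 was at 22.2 and 29.1 against 8.30 and 7.73 FPKM (1.61, adjusted p = 0.00303), and the microsomal epoxide hydrolase gene Ephx1 was at 38.5 and 32.9 against 16.3 and 15.1 FPKM (1.16, adjusted p = 0.00318). The Ugt1a genes share their last exons, so reads cannot always be assigned to 1 of them. Of 3 tested alcohol dehydrogenases, Adh7 was called, at 1.66 and 1.11 against 0.387 and 0.156 FPKM (1.29, adjusted p = 0.0146, and 0.0528 without Shh+ replicate 2). Adh5 (−0.05, adjusted p = 0.682) and Adh1 (−0.03, adjusted p = 0.884) were not called.

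**Figure D4:**
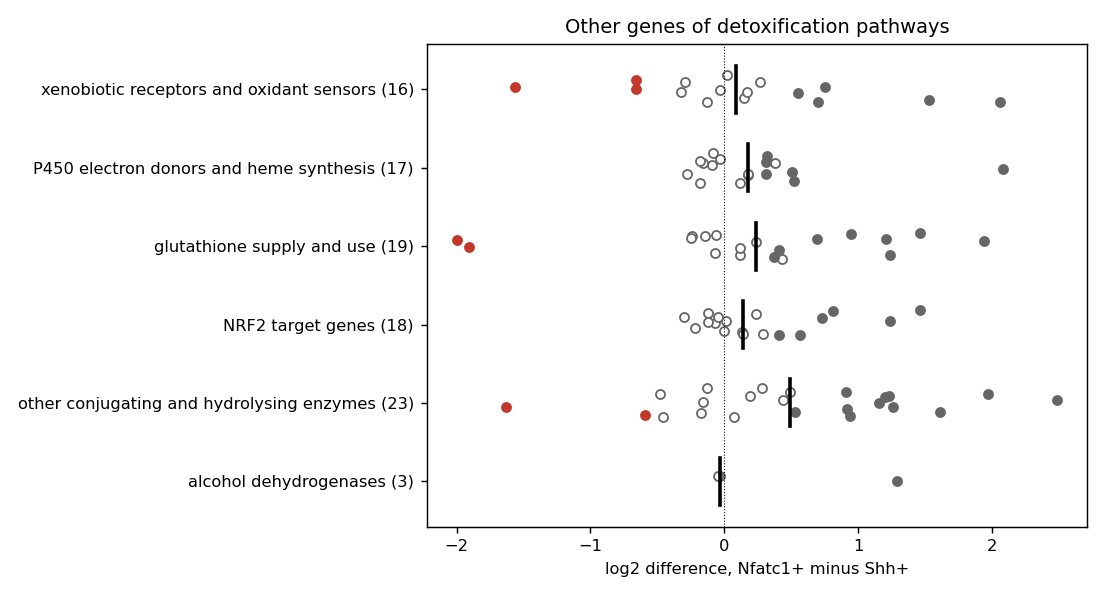
Log2 difference (Nfatc1+ minus Shh+, on log2(FPKM + 0.5)) of each tested gene in 6 lists of related genes, with the number tested in parentheses; grey and red points are genes called higher in Nfatc1+ and in Shh+ cells, open points are genes not called, and black lines are medians. The medians lie between −0.03 and 0.49, with Ugt1a1, Alad and Ahr farthest to the right and Gpx3 and Abcc4 farthest to the left.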

How the data were processed

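RNA of 4 libraries (2 Nfatc1+, 2 Shh+) was sequenced as paired reads. Per the labels and the study's methods, the authors mapped them to mouse GRCm38/mm10 with TopHat2 (2.0.13) and deposited FPKM values from Cufflinks (2.2.1), 1 value per gene and library for 23361 genes. The annotation and any use of strand are not given in the sources used here. FPKM are not counts, so no count model was run.

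Genes averaging 0.5 FPKM or more were fitted with limma (3.58.1, R 4.3.3, no intensity trend) on log2(FPKM + 0.5) and adjusted by the Benjamini-Hochberg method over all 12750 genes. The fit was also run on simulated data, whose outcome is not given here and on which no result rests. Members, gene lists and tests were chosen with earlier results of these data known. Genes named with full values were those called with an absolute log2 difference of at least 1, the 10 with the highest mean, those at 0 in both libraries of a population, and the 4 lowest adjusted p of each related list with Ahr, Nfe2l2 and Keap1; 1 gene that this rule selects is not reported here. Other genes are named to complete a family or a cluster.

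Positions and transcripts are from GENCODE M21 and promoter windows from RefSeq, both on GRCm38. A P450 or transferase cluster joins members less than 500000 bases apart. Windows of 100 bases of each longest transcript were searched for exact copies in other genes, in place of a planned protein comparison, which was not made. Alternatives changed the pseudocount (0.1, 1), the filter (none, 1 FPKM), the scaling, the variance trend, the block on replicate number, the libraries (1 left out at a time) and the threshold (unadjusted p under 0.01 and a fold above 2).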

Additional observations from a re-analysis of the deposited data

How the results depend on the processing

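Over the 50 tested genes of the families and 12 alternative fits, the call changed in 50 of 588 values, in 17 genes, with most changes in Cyp4f17, Cyp2w1, Cyp4v3, Cyp2s1 and Gstt2. The sign changed for Aldh1b1, Cyp4f16 and Gstt3, none of them called. Replicate numbers were not shown to pair the libraries: the correlation of same-numbered deviations over genes was 0.114 with 2 pairs. With the replicate block the counts were 1980 and 1719 over all genes, 21 and 8 over the families (Cyp4f17 lost its call), 4 against 6 for electron donors and haem synthesis toward Nfatc1+ cells, and 2 against 1 for leukocyte markers. Leaving out 1 library gave 1210 to 1433 genes higher in Nfatc1+ and 1097 to 1165 higher in Shh+ cells, against 2111 and 1898, and 17 to 21 family genes higher in Nfatc1+ and 4 to 7 in Shh+ cells, against 21 and 9. By family the same fits gave 4 to 7 Cyp, 5 to 7 Gst and Mgst and 7 to 8 Aldh genes higher in Nfatc1+ cells, and 1 to 2, 1 to 3 and 1 to 3 higher in Shh+ cells. In such fits the lone library of a population is assumed to vary like the others. With unadjusted p below 0.01 and more than 2-fold as the threshold, 720 genes were higher in Nfatc1+ and 591 in Shh+ cells, with 2 family genes higher in Shh+ cells (1 Cyp, 1 Gst and Mgst, 0 Aldh) and 3 Gst and Mgst genes higher in Nfatc1+ cells. A filter at 1 FPKM left 4 Cyp genes higher in Nfatc1+ cells. A pseudocount of 0.1, or no filter, left 1 Cyp gene higher in Shh+ cells. Scaling moved the median of all genes by under 0.1 log2 units. The cause of these shifts was not tested, apart from the fewer genes or libraries some settings hold. Genes averaging under 0.5 FPKM were not tested, and depth limits low values most in Shh+ replicate 2.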
